A study of Mus musculus with 14 samples.

Results

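The 10 genes described here encode the MHC class I presentation machinery and the inducible subunits of the proteasome. They were chosen by name, H2-K1, H2-D1, B2m, Tap1, Tap2, Tapbp, Psmb8, Psmb9, Psmb10 and Nlrc5, and all 10 were found by symbol among the 55536 Ensembl genes of the count table. Hippocampal RNA came from perfused mice at 10 months of age, 1 library per mouse. The 4 MRL mice are of the B6.MRL-Faslpr strain and carry the lpr mutation of Fas. The 4 MRL-IRAK4-KD mice carry the same mutation together with kinase-dead IRAK4. The 3 C57BL/6 mice have neither, and the 3 IRAK4-KD mice have kinase-dead IRAK4 alone by label. The library of 1 of these, IRAK4-KD replicate 3, had the Fas transcript pattern of the lpr mice. All strains were on the C57BL/6 background and the kinase mutation was present in every cell. MRL develops a lupus-like disease, and the comparison with MRL-IRAK4-KD asks what the loss of IRAK4 kinase activity does to the hippocampus of lupus-prone mice.

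MHC class I molecules carry peptides from inside the cell to its surface, where cytotoxic T cells inspect them. A heavy chain such as H2-K1 or H2-D1 pairs with the light chain B2m, and the peptide is cut by the proteasome, pumped into the endoplasmic reticulum by the Tap1 and Tap2 transporter and loaded with the help of tapasin, the product of Tapbp. Interferon replaces the catalytic subunits Psmb5, Psmb6 and Psmb7 of the proteasome by Psmb8, Psmb9 and Psmb10 and induces Nlrc5, the transactivator of class I genes. In the healthy brain class I is carried mainly by endothelium and microglia and little by neurons.

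On mm10, 7 of the 10 genes lay on chromosome 17, in and beside the MHC. Tapbp spanned 33915899 to 33929292, H2-K1 33996017 to 34000347, Psmb9 34181987 to 34187764, Tap1 34187553 to 34197225, Psmb8 34197721 to 34201454, Tap2 34203527 to 34216321 and H2-D1 35262730 to 35267499. B2m lay on chromosome 2 at 122147686 to 122153083. Nlrc5 and Psmb10 lay on chromosome 8, at 94434356 to 94527272 and at 105935735 to 105938444. Tap1 and Psmb9 share 212 exon bases on opposite strands, and since the use of strand in the counting was not given in the sources used here, reads from that stretch cannot be told apart.

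Of the 10 genes, 8 had a promoter of 300 bases in the RefSeq table (GRCm38.p6), and Tap2 and Nlrc5 had none there. Those of H2-K1, H2-D1 and B2m are shown because all 3 hold an interferon element, a κB consensus and X2 and CCAAT boxes paired at the same distance. The order of the first 2 differs. The interferon element follows the κB consensus in H2-K1 and H2-D1 and precedes it in B2m. Capitals mark the interferon response element, the κB consensus, and the paired X2 and CCAAT boxes through which Nlrc5 and its partners act on class I promoters, and further single boxes are in lower case. H2-K1 had 2 start sites in the table, of which 1 is shown. Each sequence runs 5′ to 3′ along its gene, chr17:34000298-34000597 on the minus strand for H2-K1, chr17:35262844-35263143 on the plus strand for H2-D1 and chr2:122147437-122147736 on the plus strand for B2m.
H2-K1: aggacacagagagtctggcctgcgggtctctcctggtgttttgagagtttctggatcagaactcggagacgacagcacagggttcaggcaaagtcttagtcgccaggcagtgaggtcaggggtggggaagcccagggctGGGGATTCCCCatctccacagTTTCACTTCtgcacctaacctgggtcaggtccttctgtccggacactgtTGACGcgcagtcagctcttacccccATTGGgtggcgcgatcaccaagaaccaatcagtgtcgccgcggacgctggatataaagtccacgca
H2-D1: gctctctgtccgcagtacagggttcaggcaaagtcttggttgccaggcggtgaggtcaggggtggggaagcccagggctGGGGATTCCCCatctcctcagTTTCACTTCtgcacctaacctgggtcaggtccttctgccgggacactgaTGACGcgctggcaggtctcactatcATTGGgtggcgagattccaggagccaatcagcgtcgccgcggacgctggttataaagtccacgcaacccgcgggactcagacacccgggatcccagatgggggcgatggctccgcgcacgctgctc
B2m: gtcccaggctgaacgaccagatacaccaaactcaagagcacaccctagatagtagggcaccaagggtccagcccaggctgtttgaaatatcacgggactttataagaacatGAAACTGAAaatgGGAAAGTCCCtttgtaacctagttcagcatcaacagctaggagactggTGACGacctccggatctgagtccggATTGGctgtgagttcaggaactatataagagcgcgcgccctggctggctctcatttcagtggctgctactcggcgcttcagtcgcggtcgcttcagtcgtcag
In all 3 promoters an X2 box of letters TGACG and a CCAAT box on the opposite strand stood with 20 bases between them. Such a pair at a distance of 18 to 22 bases stood in 0.268% of the 32851 promoters in the table and in no other of these genes. The interferon element was searched in both of its spacings on both strands. GAAANNGAA was found in B2m and in 8.56% of all promoters. GAANNGAAA was found in H2-K1 and H2-D1 and in 7.52% of all promoters. The κB consensus was found in H2-K1, H2-D1 and B2m and in 8.46% of all promoters. TTCNNNGAA, the gamma interferon activation site, was found in Psmb8 alone among the 8 genes and in 8.3% of all promoters. Both boxes were also searched singly on both strands. X2 boxes stood in 5 of the 8 genes and in 20.8% of all promoters, and CCAAT boxes in 6 and in 37.4%. In the 3 printed promoters no 2 of the marked elements overlap, apart from 2 overlapping κB matches in each heavy chain promoter.

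Total counts ranged from 279941472 to 572398312 per library, and each of the 10 genes had between 260 and 87085 counts in a mouse. Values below are CPM, gene counts scaled to library size after TMM normalization. The library of MRL-IRAK4-KD replicate 4 stood apart on the first principal component. The library labelled IRAK4-KD replicate 3 had 0 counts of the full-length Fas-201 transcript and 514 of Fas-204. The lpr mice had 0 and 268 to 964, and the C57BL/6 mice 345 to 584 and at most 7. That library thus had the Fas pattern of the lpr mice, and its label was kept. Irak4 RNA did not tell the groups apart, with 1.54 to 2.72 CPM over all mice, which a kinase mutation need not alter. The hippocampal markers Prox1, Wfs1 and Neurod6 were at 55.9 CPM or above in every library. Among the other listed neuron markers, MRL-IRAK4-KD replicate 4 had the highest Zbtb20, Neurod2 and Rbfox3, at 1509, 335 and 737 CPM. Its Snap25 was the lowest, at 1318 CPM against 2007 CPM or more in any other library.

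Counted over all transcripts, the classical heavy chains were higher in each of the 4 MRL mice than in any other mouse, and for H2-D1 also over protein-coding transcripts. H2-D1, one of the class I heavy chains, stood at 45.4, 43.6, 37.3 and 85.0 CPM in the 4 MRL mice and at 28.9, 29.8, 28.8 and 29.96 CPM in the 4 MRL-IRAK4-KD mice. It stood at 25.4, 22.996 and 22.7 CPM in C57BL/6 and at 24.5, 22.7 and 18.7 CPM in IRAK4-KD mice. The MRL values did not overlap those of any other group, and the MRL-IRAK4-KD values were in turn all above those of both groups without lpr by label. The fold of MRL over MRL-IRAK4-KD was 1.80, a log2 fold change of 0.85 with an SE of 0.20, and its 2-sided exact permutation p of 0.0286 was the smallest that 4 mice against 4 can give. In edgeR's quasi-likelihood test across 38070 genes the unadjusted p was 0.000927 and the adjusted p was 0.281.

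H2-K1, the other classical heavy chain of these mice, stood at 38.5, 36.3, 28.9 and 86.4 CPM in MRL and at 24.6, 27.5, 24.7 and 21.5 CPM in MRL-IRAK4-KD mice. It stood at 22.04, 23.03 and 22.5 CPM in C57BL/6 and at 21.5, 19.1 and 15.7 CPM in IRAK4-KD mice. Again every MRL mouse was above every other mouse, and the lowest value lay in IRAK4-KD replicate 3. The log2 fold change of MRL over MRL-IRAK4-KD was 0.95 with an SE of 0.26 (edgeR adjusted p = 0.369). The count of H2-K1 depended on its transcripts, since a retained-intron transcript took 44.0% of its counts in MRL replicate 2 and between 0.876% and 3.52% in the other 3 MRL mice. Counted over the protein-coding transcripts alone, H2-K1 stood at 35.7, 19.3, 26.7 and 83.0 CPM in MRL and at 23.1, 24.7, 23.3 and 15.7 CPM in MRL-IRAK4-KD mice, so that the groups overlapped, with an exact permutation p of 0.2. C57BL/6 mice had 17.4 to 20.8 CPM on that count and overlapped MRL as well, with an exact permutation p of 0.114. H2-D1 is alike in part to other class I genes, with 4.64% of the 100-base windows of its main transcript also found in 9 other genes.

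B2m, the light chain shared by all class I molecules, was the most abundant of the 10 genes and stood at 115, 116, 92.6 and 182 CPM in MRL mice. It stood at 86.4, 89.3, 82.4 and 113 CPM in MRL-IRAK4-KD, at 71.2, 75.3 and 71.8 CPM in C57BL/6 and at 74.6, 75.1 and 65.3 CPM in IRAK4-KD mice. All mice of the MRL and MRL-IRAK4-KD groups were above all mice of the groups without lpr by label, and MRL and MRL-IRAK4-KD overlapped through MRL-IRAK4-KD replicate 4. The log2 fold change of MRL was 0.44 (SE 0.17) over MRL-IRAK4-KD and 0.79 (SE 0.19) over C57BL/6, with edgeR adjusted p values of 0.437 and 0.556.

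Nlrc5, the transactivator, had the largest fold change of the 10 genes over MRL-IRAK4-KD mice and the lowest level per length. It stood at 1.71, 1.51, 1.36 and 6.01 CPM in MRL and at 0.949, 1.34, 0.926 and 0.953 CPM in MRL-IRAK4-KD mice. It stood at 1.36, 1.15 and 0.806 CPM in C57BL/6 and at 0.644, 0.776 and 0.703 CPM in IRAK4-KD mice. The 4 MRL values were above those of MRL-IRAK4-KD, with MRL replicate 3 and MRL-IRAK4-KD replicate 2 almost touching, and they overlapped those of C57BL/6. The log2 fold change of MRL over MRL-IRAK4-KD was 1.34 with an SE of 0.41 (edgeR adjusted p = 0.401), and it was 0.57 with an SE of 0.22 without MRL replicate 4.

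Of the genes that transport and load peptides, Tap1 stood at 4.87, 4.20, 3.75 and 12.2 CPM in MRL and at 4.05, 3.70, 3.19 and 3.42 CPM in MRL-IRAK4-KD mice, and between 2.65 and 3.75 CPM in the 6 other mice. Tap2, its partner in the transporter, stood at 8.81, 8.94, 8.20 and 14.1 CPM in MRL mice. Its lowest value of all, 4.82 CPM, was in MRL-IRAK4-KD replicate 4, and the other 9 mice had between 5.92 and 8.37 CPM. Tapbp, the loading chaperone, had its highest value in MRL-IRAK4-KD replicate 4, at 48.4 CPM, against 38.8 CPM in MRL replicate 4 and between 21.1 and 28.9 CPM in the 12 other mice. For all 3 genes the MRL and MRL-IRAK4-KD values overlapped. The log2 fold change of MRL over MRL-IRAK4-KD was 0.80 (SE 0.31) for Tap1, 0.50 (SE 0.20) for Tap2 and -0.04 (SE 0.20) for Tapbp. Over protein-coding transcripts alone, Tap1 had 2.94 to 8.33 CPM in MRL and 0.0419 to 3.51 CPM in MRL-IRAK4-KD mice (exact permutation p = 0.143). Its lowest value was in MRL-IRAK4-KD replicate 4, where those transcripts took 1.22% of its counts. Tap2 had 4.67 to 9.54 and 3.35 to 6.06 CPM on that count (exact permutation p = 0.114). Tapbp shares 904 exon bases with an antisense gene and 149 with Zbtb22.

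The inducible proteasome subunits differed among themselves. Psmb8, which replaces Psmb5, stood at 4.51, 3.796, 3.36 and 11.01 CPM in MRL and at 3.14, 3.42, 3.09 and 5.16 CPM in MRL-IRAK4-KD mice. It lay between 2.30 and 3.06 CPM in the 6 mice without lpr by label, below every MRL and every MRL-IRAK4-KD mouse. That separation was not found over the protein-coding transcripts of Psmb8 alone, which took 39.8% to 94.3% of its counts in a mouse. They gave 1.56 to 6.05 CPM in MRL, 1.25 to 4.45 CPM in MRL-IRAK4-KD, 2.31 to 2.48 CPM in C57BL/6 and 1.56 to 2.43 CPM in IRAK4-KD mice. Psmb9, which replaces Psmb6, stood at 1.56, 1.80, 1.53 and 4.55 CPM in MRL and at 1.73, 1.56, 1.46 and 1.41 CPM in MRL-IRAK4-KD mice. It stood at 1.29, 1.56 and 0.998 CPM in C57BL/6 and at 0.907, 0.833 and 0.876 CPM in IRAK4-KD mice, the lowest 3 values of the 14. Psmb10, which replaces Psmb7, lay between 15.2 and 19.7 CPM in MRL and between 12.9 and 16.7 CPM in IRAK4-KD mice, and was highest in MRL-IRAK4-KD replicate 4, at 32.5 CPM. The log2 fold change of MRL over MRL-IRAK4-KD was 0.61 (SE 0.32) for Psmb8, 0.62 (SE 0.31) for Psmb9 and -0.24 (SE 0.20) for Psmb10.

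**Figure D1:**
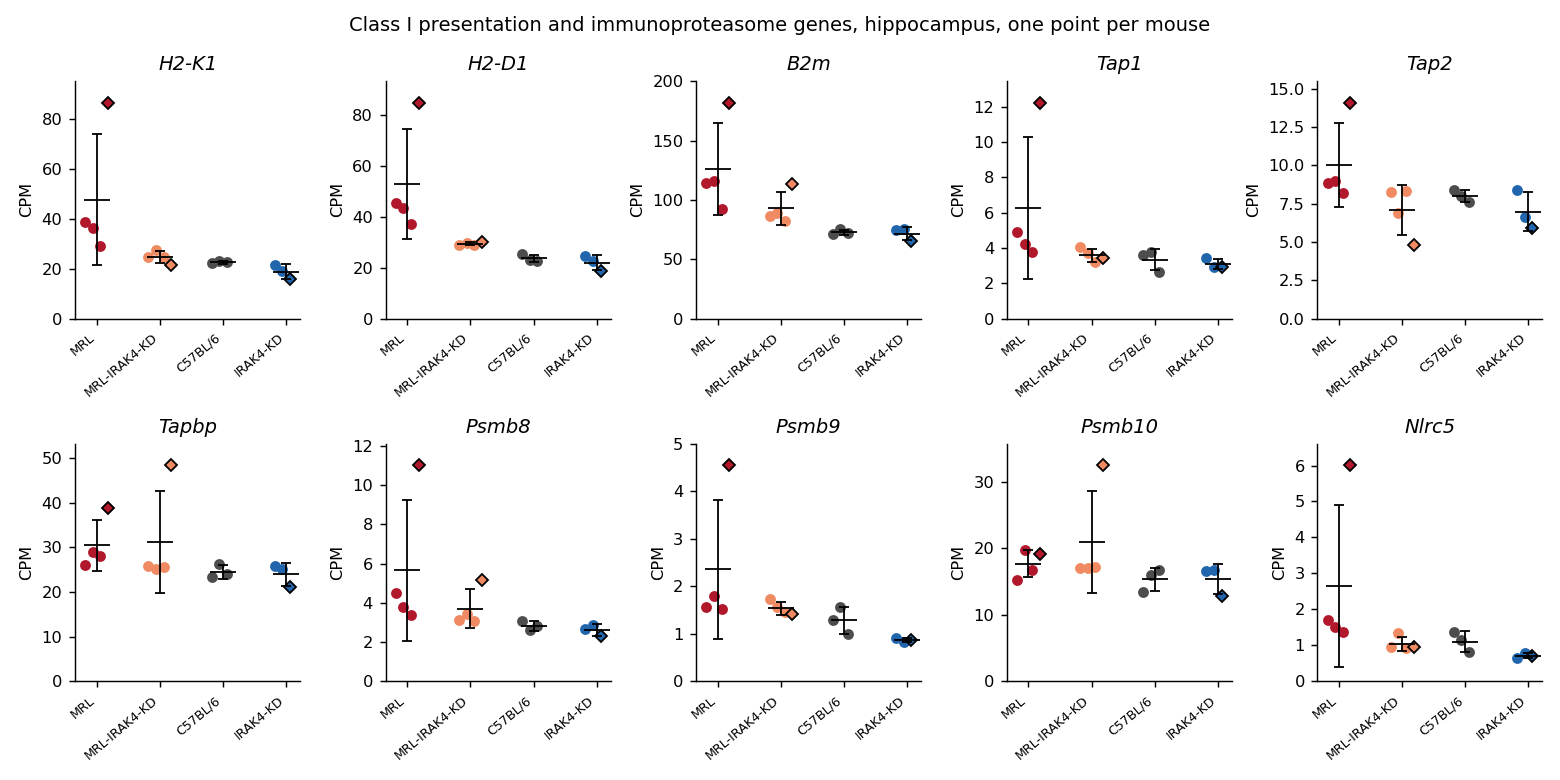
Levels of the 10 genes in CPM on linear axes from 0, one point per mouse in each of the 4 groups, with the mean and SD as bars. Diamonds mark MRL replicate 4, MRL-IRAK4-KD replicate 4 and IRAK4-KD replicate 3. MRL replicate 4 is the highest of 14 mice for 8 of the 10 genes, and MRL-IRAK4-KD replicate 4 is the highest for Tapbp and Psmb10.

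When MRL was set against MRL-IRAK4-KD, 0 of the 10 genes passed an adjusted p of 0.05 in edgeR, against 0.0972% of the 38070 genes tested. In limma-voom 0 of 10 passed, against 213 of 38070. At an unadjusted p below 0.05 there were 6 of 10, H2-K1, H2-D1, B2m, Tap1, Tap2 and Nlrc5, against 11.4% of all genes, and all 6 were higher in MRL, a direction in which 5.14% of all genes passed. The 4 MRL values all exceeded the 4 MRL-IRAK4-KD values for 3 of the 10 genes and for 3.13% of all genes. Without MRL-IRAK4-KD replicate 4 there were 5, with B2m and Tapbp added, and 4.41% of all genes. Over protein-coding transcripts with all mice there were 2, H2-D1 and Nlrc5, and the share of all genes on that count was not computed. The median log2 fold change of the 10 genes was 0.62 and that of all genes was 0.00. DESeq2 gave adjusted p values of 0.0138 for H2-D1 and 0.0418 for H2-K1, where it called 1.05% of all genes.

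Against C57BL/6, 0 of the 10 genes passed the adjusted threshold in edgeR or limma-voom. Of all genes, edgeR called 0% and limma-voom 38 of 38070. At the unadjusted p, 7 of 10 passed against 5.55% of all genes, and all 7 were higher in MRL, as were 3.16% of all genes. They were H2-K1, H2-D1, B2m, Tap1, Psmb8, Psmb9 and Nlrc5. The groups were apart for H2-K1, H2-D1, B2m, Tap1 and Psmb8, 5 of 10 against 4.47% of all genes. For Tap1 they almost touched, with 3.751 CPM in MRL replicate 3 and 3.747 CPM in C57BL/6 replicate 2. Over protein-coding transcripts they were apart for 4, H2-D1, B2m, Tap1 and Psmb9, with no share of all genes computed on that count. H2-D1 had a log2 fold change of 1.16 with an SE of 0.22 (edgeR adjusted p = 0.326), and the exact permutation p of the 5 separated genes, 0.0571, was the smallest that 4 mice against 3 can give. The median log2 fold change was 0.90. DESeq2 called H2-D1, B2m and H2-K1, with adjusted p values of 0.000949, 0.0222 and 0.0421, and 0.539% of all genes. Both of these comparisons use the same MRL mice.

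A single MRL mouse set much of these sizes. MRL replicate 4 had 1.11 to 3.93 times the mean of the other 3 MRL mice, with a median over the 10 genes of 2.26 times, the lowest for Psmb10 and the highest for Nlrc5. Without it the median log2 fold change was 0.25 over MRL-IRAK4-KD and 0.43 over C57BL/6, and 3 and 4 of the 10 genes passed the unadjusted p, against 6.98% and 4.72% of all genes. The heavy chains kept their direction and came with smaller errors. H2-D1 then had a log2 fold change of 0.54 (SE 0.11) over MRL-IRAK4-KD and 0.85 (SE 0.12) over C57BL/6, and H2-K1 had 0.51 (SE 0.14) and 0.63 (SE 0.15). Psmb8 and Psmb9 had 0.09 (SE 0.19) and 0.10 (SE 0.19) over MRL-IRAK4-KD. With that mouse left out the same 3 genes were apart from MRL-IRAK4-KD, and the same 5 from C57BL/6, against 4.02% and 6.24% of all genes. That had to be so, since MRL replicate 4 was the highest MRL mouse for each of these genes. The separation therefore says nothing on the weight of that mouse.

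**Figure D2:**
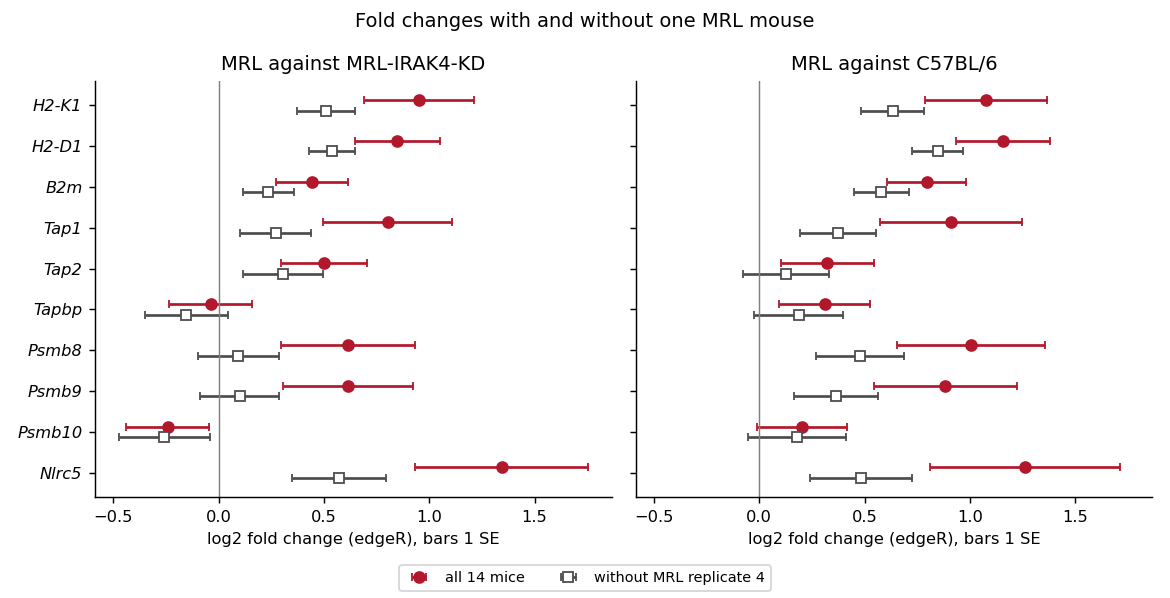
Log2 fold changes of the 10 genes from edgeR, MRL over MRL-IRAK4-KD on the left and MRL over C57BL/6 on the right, with all 14 mice (filled circles) and without MRL replicate 4 (open squares). Bars are 1 SE. The values of Tap1, Psmb8, Psmb9 and Nlrc5 shrink most, and those of H2-K1 and H2-D1 stay above 0.50 in both comparisons.

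The strains without lpr by label differed little in most of the 10 genes and more in Psmb9 and Nlrc5. Between IRAK4-KD and C57BL/6 mice 0 of 10 genes passed the adjusted p (0.147% of all genes), and 0 passed the unadjusted p (3.8% of all genes). By DESeq2 and limma-voom 0 of 10 passed the adjusted p as well, against 162 of 37651 and 145 of 38070 genes tested. The median log2 fold change was -0.11, with 9 of 10 genes lower in IRAK4-KD. Every C57BL/6 mouse was above every IRAK4-KD mouse for H2-K1, Psmb9 and Nlrc5, 3 of 10 against 5.52% of all genes, with an exact permutation p of 0.1, the smallest that 3 mice against 3 can give. The log2 fold changes were -0.26 (SE 0.30), -0.55 (SE 0.36) and -0.64 (SE 0.47). Without the library labelled IRAK4-KD replicate 3 the median was -0.05 and 0 genes passed the unadjusted p. Without MRL replicate 4, whose spread enters the shared fit, Psmb9 and Nlrc5 passed it, as did 3.53% of all genes. Over protein-coding transcripts H2-K1 and Psmb9 were apart, with no share of all genes computed on that count.

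Among mice with the mutation, MRL-IRAK4-KD had higher means than IRAK4-KD for all 10 genes, with a median log2 fold change of 0.41. The adjusted p was passed by 0 of 10 genes (0.0735% of all genes) and the unadjusted p by Psmb9 alone, 1 of 10 (8.63% of all genes). Groups were apart for 6 of 10 genes, H2-D1, B2m, Psmb8, Psmb9, Psmb10 and Nlrc5, and for 4.31% of all genes. Psmb9 had a log2 fold change of 0.82 (SE 0.34, edgeR adjusted p = 0.553), H2-D1 of 0.42 (SE 0.22) and B2m of 0.37 (SE 0.19). Without the library labelled IRAK4-KD replicate 3, 0 genes passed the unadjusted p, against 4.45% of all genes, and 9 of 10 were higher. The same 6 genes were apart, against 5.63% of all genes, which had to be so, since leaving out a mouse cannot undo a separation. Without MRL replicate 4, 6 genes passed the unadjusted p, against 7.42% of all genes. Over protein-coding transcripts 5 genes were apart, H2-K1, H2-D1, B2m, Psmb9 and Nlrc5, with no share of all genes computed on that count. Between MRL-IRAK4-KD and C57BL/6, 0 of 10 passed the adjusted p (0.0972% of all genes) and 0 the unadjusted p (8.62% of all genes). The median difference was 0.29 on the log2 scale, and 0.17 without MRL-IRAK4-KD replicate 4. Every MRL-IRAK4-KD mouse was above every C57BL/6 mouse for 4 of 10 genes, H2-D1, B2m, Psmb8 and Psmb10. Their exact permutation p, 0.0571, was the smallest that 4 mice against 3 can give. Over protein-coding transcripts 4 were apart, H2-D1, B2m, Psmb9 and Psmb10. The share of all genes was computed on neither count. Without MRL replicate 4, 2 genes passed the unadjusted p, against 7.56% of all genes. DESeq2 and limma-voom called 0 of 10 in both. Against IRAK4-KD they called 305 of 37651 and 275 of 38070 genes, and against C57BL/6 180 and 75. These 2 comparisons share the MRL-IRAK4-KD mice.

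Whether the effect of the mutation depended on lpr was tested as an interaction, the difference of MRL from MRL-IRAK4-KD minus that of C57BL/6 from IRAK4-KD. It passed the adjusted p in 0 of 10 genes (0.00263% of all genes) in edgeR. In DESeq2 and limma-voom it passed in 0 of 10 as well, against 60 of 37651 and 22 of 38070 genes. At the unadjusted p it passed for H2-D1 alone, 1 of 10 (4.17% of all genes), where it was 0.74 on the log2 scale with an SE of 0.31 (edgeR adjusted p = 0.914). The median over the 10 genes was 0.46, and without MRL replicate 4 it was 0.05. Without the library labelled IRAK4-KD replicate 3, which had the Fas pattern of lpr mice, the median was 0.53. For Psmb9 the interaction was 0.06 with a 95% interval of -0.95 to 1.07, too wide to say whether the 2 differences were alike.

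Scaled for transcript length, the levels differed between genes by orders of magnitude. In TPM over the 14 mice, B2m averaged 222, H2-K1 39.1, H2-D1 34.5, Psmb10 30.3 and Tapbp 21.99. Tap2 averaged 5.43 TPM, Psmb8 4.99, Tap1 2.89, Psmb9 2.28 and Nlrc5 0.447. The constitutive subunits stood far higher, with 136 TPM for Psmb5, 160 for Psmb6 and 149 for Psmb7.

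Set against its constitutive counterpart, each inducible subunit was a small share of the pair. Over all transcripts, retained introns included, Psmb8 made 5.99% ± 3.97 (SD, n = 4) of the summed TPM of Psmb8 and Psmb5 in MRL, and 2.83% ± 0.535 (SD, n = 4) in MRL-IRAK4-KD mice. The share was 2.93% ± 0.641 (SD, n = 3) in C57BL/6 and 2.72% ± 0.309 (SD, n = 3) in IRAK4-KD mice. The lowest MRL share, 3.70%, was just above the highest share elsewhere, 3.66% in C57BL/6. Psmb9 made 1.41% to 4.66% of its pair with Psmb6 in MRL and 0.619% to 1.49% in MRL-IRAK4-KD mice, and those ranges overlapped. Psmb10 made 14.8% to 20.1% of its pair with Psmb7 in MRL and 15.6% to 23.7% in MRL-IRAK4-KD mice. MRL replicate 4 alone had 11.9% for Psmb8 and 4.66% for Psmb9, and 19.2% for Psmb10, which replicate 2 exceeded.

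**Figure D3:**
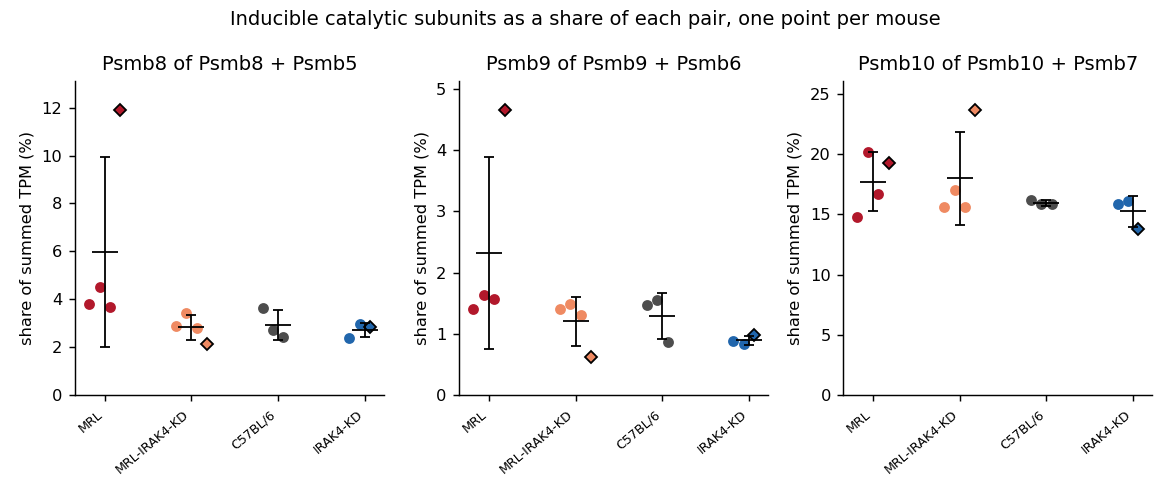
Share of the inducible subunit in the summed TPM of each pair, Psmb8 with Psmb5, Psmb9 with Psmb6 and Psmb10 with Psmb7, in percent from 0, one point per mouse with the mean and SD. Diamonds mark MRL replicate 4, MRL-IRAK4-KD replicate 4 and IRAK4-KD replicate 3. The first of these has the highest share for Psmb8 and Psmb9, 11.9% and 4.66%, and the second for Psmb10, 23.7%.

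Across the 14 mice, H2-K1 and H2-D1 moved most closely together, with a Pearson r of 0.97 of log2(CPM + 0.1), and 0.94 without MRL replicate 4. In the latter case Tapbp and Psmb10 were the closest pair, with 0.96. B2m had 0.96 with Psmb8 and 0.95 with H2-D1. Psmb10 stood aside, with a median r of 0.28 with the other 9 genes, a lowest value of -0.26 with Tap2 and a highest of 0.91 with Tapbp. These are descriptions over mice that share group, library and depth.

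The genes most like the 10 in their pattern over the 14 mice were Icam1, Tgm2, Mmrn2, Ube2l6, H2-Q4, Gbp2, Tagln2, Lsr, Gbp7 and Vwf. Their Pearson r with the mean of the 10 z-scaled genes lay between 0.94 and 0.97 among 16094 genes whose mean over the libraries reached 1 CPM. Gbp2 and Gbp7 are interferon-induced GTPases, H2-Q4 is a nonclassical class I chain, Ube2l6 is the conjugating enzyme of ISG15, and Icam1, Mmrn2 and Vwf are known from endothelium. Gbp2 averaged 18.7 CPM in MRL, with 59.3 CPM in MRL replicate 4, and between 2.44 and 3.70 CPM in the other groups. Without MRL-IRAK4-KD replicate 4, 5 of these 10 remained among the top 10, and without MRL replicate 4, 4 remained.

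The wider pathway was counted in the same fit. In MRL against MRL-IRAK4-KD, 11.4% of all genes had an unadjusted p below 0.05, and 5.14% had it with a higher level in MRL. Of 16 tested heavy chains outside the 10, 8 had an unadjusted p below 0.05 in MRL over MRL-IRAK4-KD, all higher in MRL, and 0 passed the adjusted p, with a median log2 fold change of 0.64. H2-Q7 averaged 6.03 CPM ± 5.15 (SD, n = 4) in MRL and 1.46 CPM ± 0.197 (SD, n = 4) in MRL-IRAK4-KD mice. Its fitted log2 difference was 2.04 (SE 0.42). H2-Q6 and H2-Q4 had log2 fold changes of 1.79 (SE 0.44) and 1.44 (SE 0.37), and H2-Q10, at 0.265 CPM in MRL, had 2.99 (SE 0.82). These chains are alike in sequence, so the split of reads between them is uncertain. Summed, the 16 chains stood at 61.2 to 129 CPM in MRL and 47.0 to 54.9 CPM in MRL-IRAK4-KD mice.

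Among the 9 loading and trimming genes only Erap1, the aminopeptidase that trims peptides in the endoplasmic reticulum, passed the unadjusted p, with a log2 fold change of 0.56 (SE 0.22). Of 15 standard proteasome subunits, 5 passed it and all 5 were lower in MRL, with 0 past the adjusted p. The unadjusted p was passed by 11.4% of all genes in either direction. Psmb5, Psmb6 and Psmb7 had log2 fold changes of -0.56 (SE 0.23), -0.44 (SE 0.20) and -0.25 (SE 0.11), and Psma4 and Psmb2 had -0.41 (SE 0.14) and -0.39 (SE 0.15). Against C57BL/6 0 of the 15 passed, where 5.55% of all genes did, and Psmb5, Psmb6 and Psmb7 were at -0.02, -0.01 and -0.01. The summed level of the 15 subunits was 1580 CPM in MRL-IRAK4-KD replicate 4 and at most 1085 CPM in any other mouse. None of the 4 proteasome activator genes passed the unadjusted p.

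Of 23 regulators, 4 were higher and 1 was lower in MRL than in MRL-IRAK4-KD at the unadjusted p, and 0 passed the adjusted p. Of all genes, 11.4% passed the unadjusted p in either direction and 5.14% with a higher level in MRL. Irf9, a DNA-binding subunit of the complex that answers type I interferon, had a log2 fold change of 0.51 (SE 0.12). Jak2, a kinase of cytokine receptors, had 0.47 (SE 0.20) and Irf1, an interferon-induced activator of class I genes, 0.56 (SE 0.24). The lower one, named after its values were seen, was Rfxap, a subunit of the RFX complex that binds class I and class II promoters, at -0.25 (SE 0.12).

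Markers of some other cell types were higher in MRL than in MRL-IRAK4-KD mice, and those of others were not. At an unadjusted p below 0.05 (edgeR), 11.4% of all genes passed in that comparison, and 5.14% passed with a higher level in MRL. All 12 endothelial markers were tested, and 10 of them were higher in MRL than in MRL-IRAK4-KD at the unadjusted p, with Slco1a4 past the adjusted p (0.0434 in edgeR). The summed endothelial markers stood at 221 to 431 CPM in MRL, 148 to 190 CPM in MRL-IRAK4-KD, 139 to 168 CPM in C57BL/6 and 103 to 116 CPM in IRAK4-KD mice, and MRL replicate 4 was the highest. Its sum was 1.83 times the mean of the other MRL mice, and that of the 10 class I genes was 1.84 times. The same ratio was 2.93 for choroid plexus markers and 1.81 for red cell, platelet and neutrophil genes. It was 1.21 for meningeal, 1.05 for lymphocyte, 0.90 for hippocampal neuron and 0.18 for pituitary markers. Of 12 microglial markers 4 were higher in MRL at the unadjusted p, and MRL replicate 4 had 1.01 times the mean of the other MRL mice. The summed microglial markers stood at 450 to 572 CPM in MRL and 422 to 456 CPM in MRL-IRAK4-KD mice. They stood at 383 to 408 CPM in C57BL/6 and 368 to 408 CPM in IRAK4-KD mice. Red cell, platelet and neutrophil genes stood at 85.7 to 374 CPM in MRL and 54.1 to 196 CPM in MRL-IRAK4-KD mice, and 6 of 9 were higher at the unadjusted p. The 12 lymphocyte markers summed to between 2.02 and 7.29 CPM in every mouse, with Cd3d, Cd8b1, Cd2 and Ms4a1 among those at 0 in at least 1 library, and 0 of 12 passed. Choroid plexus markers summed to 7814 CPM in MRL-IRAK4-KD replicate 4, where Tapbp and Psmb10 were highest, and to at most 1854 CPM elsewhere. Meningeal and fibroblast markers stood at 82.4 to 108 CPM in MRL and 83.4 to 144 CPM in MRL-IRAK4-KD mice, and pituitary markers, high in MRL replicate 3 alone, at 1.57 to 87.2 CPM and 2.25 to 5.65 CPM. At the unadjusted p 0 of 8 choroid plexus, 0 of 8 meningeal, 3 higher and 1 lower of 6 pituitary, and 2 of 7 hippocampal neuron markers passed, the last 2 lower in MRL. The part of these cell types in the result was not tested, and more cells of a type and more RNA per cell cannot be told apart in bulk tissue.

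**Figure D4:**
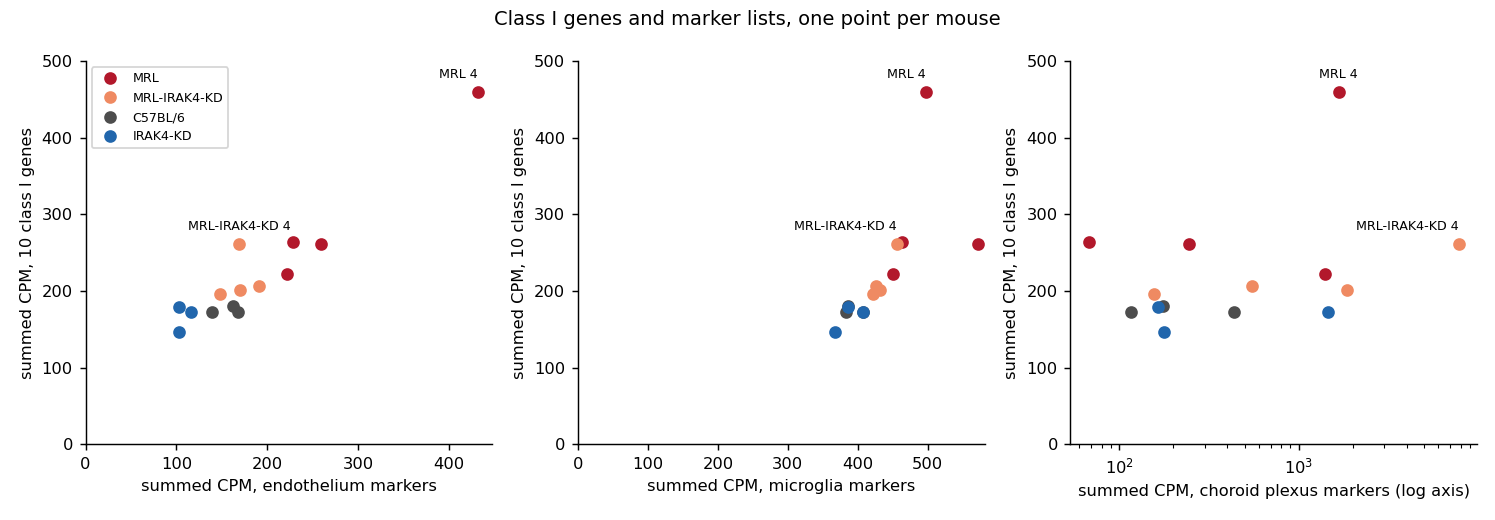
Summed CPM of the 10 class I genes (vertical) against summed CPM of 12 endothelial, 12 microglial and 8 choroid plexus markers (horizontal, the last on a log axis), one point per mouse. MRL replicate 4 lies at 459 CPM of class I genes with the highest endothelial sum, 431 CPM, while its microglial sum of 498 CPM is below that of another MRL mouse, 572 CPM.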

How the data were processed

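Hippocampal RNA of 14 mice was sequenced. Per the labels the authors used a KAPA HyperPrep mRNA kit, and the published methods give SMART-seq with NexteraXT instead. The submitters' processing notes name HISAT2 2.1.0, SAMtools 1.9, StringTie 2.1.0 and mm10. The authors deposited raw whole-number counts, in a gene table and a transcript table. The tables held 1.40 to 2.08 counts per read listed in the sequencing sheet. The sheet gives a paired read layout and the published methods single-end reads. The reason for the excess was not tested. The annotation is not given in the sources used here, and all 55536 Ensembl identifiers are those of GENCODE M21. Rows that are no Ensembl gene took 0.0254% to 0.188% of counts and were left out. The deposited sequencing sheet, whose qPCR library concentrations (nM) were 13.48 for MRL-IRAK4-KD replicate 4 and 23.49 to 27.55 for the others, served to check depth only.

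Groups came from the titles. Genes with at least 10 counts over all libraries (38070) were fitted in 1 model of the 4 groups with edgeR 4.0.16 (TMM, robust quasi-likelihood test, Benjamini-Hochberg adjustment) in R 4.3.3, after a test on simulated data. For each member an exact permutation test (2-sided, scipy 1.17.1) was run on log2(CPM + 0.1). TPM was computed from transcript counts and lengths. The fit was repeated with library size only, with RLE factors, DESeq2 1.42.0, limma-voom (limma 3.58.1) with quality weights, no filter, filterByExpr, only the groups compared, a replicate block, each library left out, 2 libraries left out, transcript counts summed, and a pseudocount of 1. The counts over protein-coding transcripts and the second spelling of the interferon element were added after values were seen. The numbers of the labels did not pair the mice, as 4 of 19 same-number correlations exceeded 0.1. The labels do not say whether mice shared a litter.

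Named genes were the 10 members, the listed genes of each other pathway with the smallest unadjusted p (up to 4), Psmb5, Psmb6, Psmb7, Irf1, the 10 genes of most similar pattern, and Irak4 and Fas. Beside the rule, hippocampal markers, lymphocyte markers listed at 0, Zbtb22 and Rfxap were named after their values were seen. Some genes of the lists are not reported here by name. The 10 genes and the other lists were chosen with earlier results of these data known. Intervals and p-values cover the spread between these mice, and counts are not independent molecules. Plots used Python 3.11.15 and matplotlib 3.10.9.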

Additional observations from a re-analysis of the deposited data

Results flagged for a closer look

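Of 20 groups of 4 mice tested for a value far from the other 3, 11 stood out by Dixon's criterion, of which chance gives about 1 in 20, and the 10 genes are not independent. MRL replicate 4 was far above the other MRL mice in 7 genes. It had 86.4 CPM of H2-K1 against 28.9 to 38.5 CPM, 85.0 CPM of H2-D1 against 37.3 to 45.4 CPM and 12.2 CPM of Tap1 against 3.75 to 4.87 CPM. It had 14.1 CPM of Tap2 against 8.20 to 8.94 CPM, 11.01 CPM of Psmb8 against 3.36 to 4.51 CPM, 4.55 CPM of Psmb9 against 1.53 to 1.80 CPM, and 6.01 CPM of Nlrc5 against 1.36 to 1.71 CPM.

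MRL-IRAK4-KD replicate 4, the library that stood apart from all others, was far above its group in 3 genes. It had 48.4 CPM of Tapbp against 25.2 to 25.9 CPM, 32.5 CPM of Psmb10 against 16.98 to 17.2 CPM and 5.16 CPM of Psmb8 against 3.09 to 3.42 CPM. MRL-IRAK4-KD replicate 2 had 1.34 CPM of Nlrc5 against 0.926 to 0.953 CPM.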

How the results depend on the processing

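Values were recomputed under 10 alternative fits and with each of the 14 mice left out. Of 647 recomputed fold changes of single genes, 633 kept their direction and their side of the adjusted threshold. DESeq2 called 2 of the 10 genes in MRL against MRL-IRAK4-KD and 3 in MRL against C57BL/6. Tapbp (log2 fold change -0.04 over MRL-IRAK4-KD) turned to 0.23 in limma-voom, 0.0054 with the replicate block and 0.25 without the 2 doubtful libraries, and ran from -0.15 to 0.26 as each mouse was left out. Psmb10 turned to 0.032 in limma-voom and 0.047 without the 2 libraries, and ran from -0.33 to 0.057, the last without MRL-IRAK4-KD replicate 4. With only the groups compared in the fit, the genes at an unadjusted p below 0.05 numbered 3 in MRL against MRL-IRAK4-KD, 3 in IRAK4-KD against C57BL/6, 4 in MRL-IRAK4-KD against IRAK4-KD and 2 in MRL-IRAK4-KD against C57BL/6, where 6.64%, 6.74%, 4.51% and 4.75% of all genes passed. The replicate block gave 4 in MRL against C57BL/6, 2 in MRL-IRAK4-KD against IRAK4-KD and 2 for the interaction (6.19%, 4.87% and 3.08% of all genes), and medians of 0.24 and 0.10 for MRL-IRAK4-KD against IRAK4-KD and C57BL/6. Limma-voom gave 0 for the interaction (7.89% of all genes) and medians of 0.25 and 0.16 for those comparisons. It gave 4 in MRL against MRL-IRAK4-KD and 5 in MRL against C57BL/6, where 15.4% and 12.1% of all genes passed. DESeq2 gave 7 in each of these 2, where 11.9% and 6.02% of all genes passed. Without the 2 libraries the counts were 0 in MRL-IRAK4-KD against IRAK4-KD and 2 for the interaction (6.8% and 4.24% of all genes), and the medians 0.21 and 0.17. The causes were not tested.

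Leaving out each mouse, the unadjusted counts ran from 3 to 8 (MRL against MRL-IRAK4-KD), 4 to 8 (MRL against C57BL/6), 0 to 2 (IRAK4-KD against C57BL/6), 0 to 6 (MRL-IRAK4-KD against IRAK4-KD), 0 to 2 (MRL-IRAK4-KD against C57BL/6) and 0 to 3 (interaction), and the median of MRL-IRAK4-KD against C57BL/6 from 0.17 to 0.31. The shares of all genes ran from 6.98% to 15.5%, 3.87% to 10.1%, 2.49% to 6.96%, 4.45% to 11.9%, 4.23% to 11.8% and 2.91% to 6.0% in the same order. Leaving out MRL replicate 4 gave the lowest count of the 10 genes in the first 2 comparisons and the highest in the next 3. In MRL against C57BL/6, leaving out C57BL/6 replicate 3 gave the same lowest count, 4. Of the 10 genes of most similar pattern, 5 remained without MRL-IRAK4-KD replicate 4. The transcript table gave the same values, and a pseudocount of 1 moved no exact p across the threshold. Depth limits little here, since the least abundant gene had 260 counts or more in every mouse, while 3 or 4 mice per group limit the tests.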
